A study of Arabidopsis thaliana with 4 samples.

Results

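The genes described are 41 nuclear loci of Arabidopsis thaliana that encode proteins of the photosynthetic apparatus. They were taken by locus from a named list, out of 27416 protein-coding loci measured. By role they fall into 12 antenna genes of photosystem II, 4 antenna genes of photosystem I, 7 subunit genes of photosystem II, 10 subunit genes of photosystem I, 4 genes for the small subunit of Rubisco and 4 further genes of the Calvin cycle. RNA was sequenced from whole seeds of ecotype Columbia, grown in a greenhouse and collected when their embryos were post-mature green, a late stage of seed development. The ddcc mutant and the wild type had 2 biological replicates each, and both genotypes share the Columbia background and the stage. The mutant is known by the initials of 4 genes for DNA methyltransferases (DRM1, DRM2, CMT2, CMT3) that act mostly on cytosines outside CG sites, and the comparison asks which transcripts differ when they are lost. Neither the lesions nor the number of plants behind a library were stated in the labels. A whole-seed library mixes embryo, endosperm and seed coat.

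Photosystem II and photosystem I are the pigment-protein complexes that drive light-powered electron transport in the thylakoid membrane, and antenna proteins of the LHCB and LHCA families pass absorbed light to them. Rubisco then fixes carbon dioxide in the Calvin cycle, with a large subunit encoded in the chloroplast genome and a small subunit encoded in the nucleus. Arabidopsis embryos are green and photosynthetic during seed filling and lose chlorophyll and thylakoids as the seed matures and dries.

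The 4 libraries held 1122934 and 1166635 reads in ddcc replicates 1 and 2, and 3416071 and 1292023 reads in wild-type replicates 1 and 2. The DRM2 transcript had a normalised read count of 4.85 and 8.33 in ddcc, far below the 39.3 and 39.6 of wild type, and was called lower. DRM1 had no read, and CMT2 and CMT3 had 10 reads or fewer in all. The labels of wild-type replicate 2 conflict, since the source name alone gives it as ddcc. Its DRM2 level was that of the other wild-type library, and values without it are given beside the calls of named genes that it changes. Those of DRM2 were an adjusted p of 0.0595 without it and 0.059 to 0.363 over the 4 libraries left out in turn, with a log2 fold change from -2.68 to -2.05. The labelled seed tissue carried its defining transcripts, with the storage protein gene CRC at 22786 ± 1044 in ddcc and 30056 ± 2214 in wild type. Log2 values of all tested genes correlated across genes at 0.952 and 0.947 within the genotypes and at 0.907 to 0.918 between them.

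RBCS1A (AT1G67090) carried the main result, and it belongs to a small family whose other members, RBCS1B (AT5G38430), RBCS2B (AT5G38420) and RBCS3B (AT5G38410), lie side by side on chromosome 5. The first 120 coding bases of each are printed to show how far reads of RBCS1A can be told from those of the other copies. They come from the TAIR10.1 RefSeq assembly, read 5′ to 3′ on the minus strand, and capitals mark the bases that differ from RBCS1A.
RBCS1A: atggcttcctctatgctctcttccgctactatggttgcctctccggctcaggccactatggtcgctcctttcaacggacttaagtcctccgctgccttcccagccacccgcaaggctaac
RBCS1B: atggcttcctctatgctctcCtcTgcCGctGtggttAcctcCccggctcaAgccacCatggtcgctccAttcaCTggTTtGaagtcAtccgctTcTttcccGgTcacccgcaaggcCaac
RBCS2B: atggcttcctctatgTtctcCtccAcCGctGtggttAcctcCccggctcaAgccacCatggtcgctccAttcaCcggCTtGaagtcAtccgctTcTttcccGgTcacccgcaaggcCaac
RBCS3B: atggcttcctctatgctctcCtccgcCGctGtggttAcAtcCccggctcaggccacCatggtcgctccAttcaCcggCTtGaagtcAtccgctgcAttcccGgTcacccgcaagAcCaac
Within this stretch the B genes differed from RBCS1A at 21, 21 and 19 bases, and over the whole coding sequence at 52, 51 and 51 bases plus a gap of 3 bases. Their identity with RBCS1A was 90.7% over the aligned coding bases, while the B genes were 96.7% to 97.3% identical with each other. RBCS1A lies apart on chromosome 1 at 25048158 to 25049667, and the B genes span 15376988 to 15378642 (RBCS3B), 15380907 to 15382071 (RBCS2B) and 15383167 to 15385320 (RBCS1B) on chromosome 5.

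As a group these transcripts were scarce in both genotypes. All 41 genes together took 0.0200% and 0.0175% of the ddcc reads but 0.0102% and 0.0120% of the wild-type reads, 932 reads in all. The median member had 2 reads over the 4 libraries, against 17 for the median protein-coding gene. Just 4 genes, RBCS1A, LHCB4.1, PSBR and PSBW, held 575 of the 932 reads (61.7%). No read was found in any library for 10 of the 41 members (24.4%), a share below that of all genes (27.98%), but 53.7% of members had 3 reads or fewer against 38.5% of all genes.

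A gene was tested when its mean over the 4 libraries reached 1.56, which is 1 millionth of the mean library total. Of the members 15 passed (36.6%, against 57.6% of all genes) and 26 did not. Since this filter takes the mean of both genotypes, a gene high in 1 genotype alone can pass through it, and the 15 do not stand for all 41. Fold changes are on the log2(value + 1.56) scale from a limma fit over all 15780 tested genes, which understates changes of low genes. Genes with an adjusted p under 0.05 (Benjamini-Hochberg) count as called. The calls took up 6.48% of all tested genes, 3.03% with higher and 3.45% with lower values in ddcc. Of the 15 members 1 was called, RBCS1A, and it was higher, while the other 14 were not called in either direction. At an unadjusted p under 0.05 there were 2 higher and 3 lower members, a rate to be read beside the 21.2% of all tested genes. The ddcc libraries lay both above both wild-type libraries in 4 members and both below in 3, where the shares among all tested genes were 25.7% and 25.3%. The median log2 fold change of the 15 was 0.13, against 0.02 for all tested genes, with a median SE of 0.51 and 0.37.

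**Figure D1:**
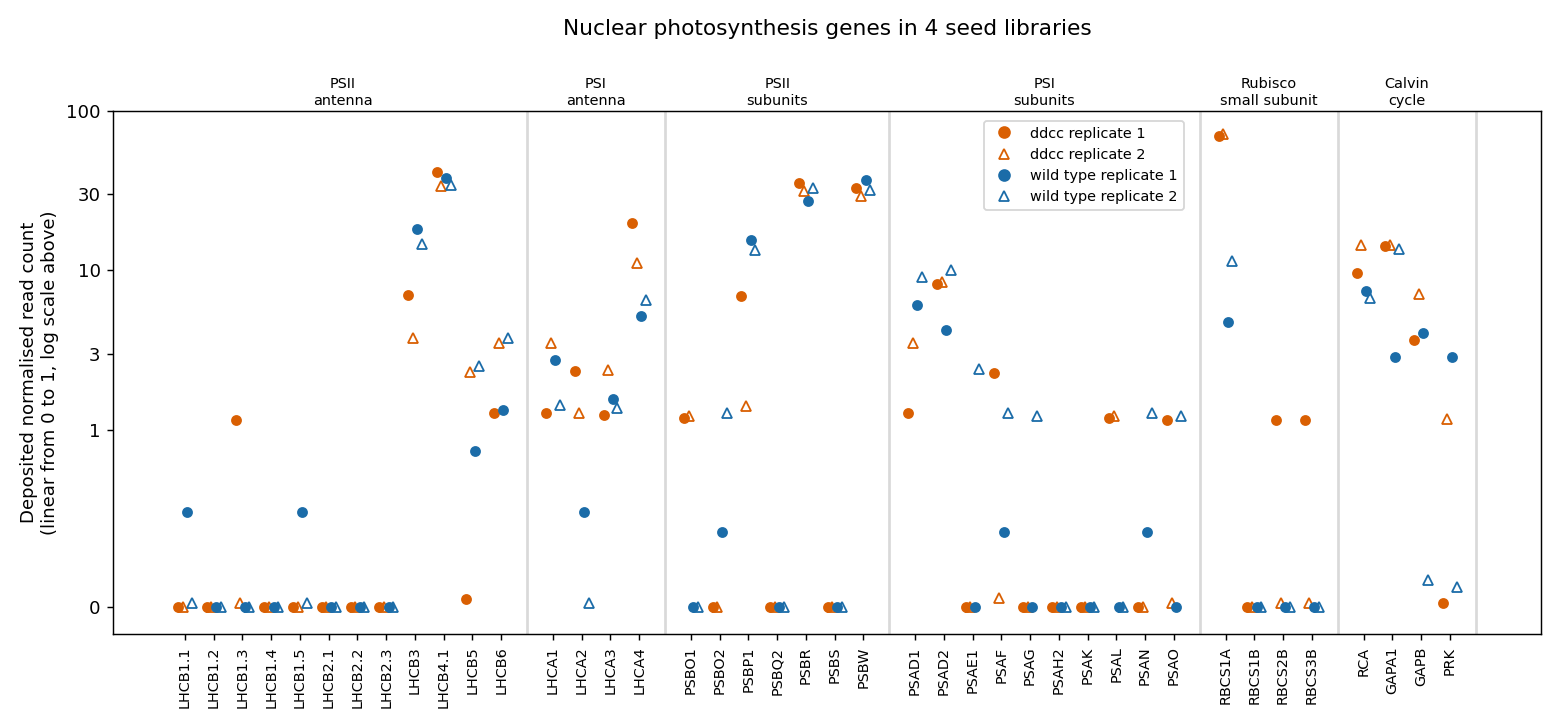
Deposited normalised read counts of the 41 genes (linear from 0 to 1, logarithmic above) in the 4 libraries, grouped by role, with 1 point per library. RBCS1A stands at 69.7 and 71.3 in ddcc against 4.74 and 11.4 in wild type, while 10 genes lie at 0 throughout.

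The plot of the members by library shows levels of 27.3 to 41.2 for LHCB4.1, PSBR and PSBW in every library, a middle band from about 1 to 20, and a large set at or near 0. The deposited values are equalised for library size within a genotype, so a library with no read can carry a small positive value where the other library of its genotype had reads.

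Antenna genes of photosystem II were read unevenly, and none of the 3 tested was called. LHCB4.1 (AT5G01530), which encodes the minor antenna protein CP29, was the most abundant of them. It stood at 41.2 and 34.0 in ddcc, against 37.9 and 34.5 in wild type, and the groups overlapped (log2 fold change 0.05, SE 0.30, limma adjusted p = 0.947). Its ratio of reads between genotypes, corrected for depth, was 1.02 with a 95% counting interval of 0.734 to 1.42.

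LHCB3 (AT5G54270), which encodes a subunit of the trimeric antenna, stood at 6.98 and 3.77 in ddcc, against 18.3 and 14.7 in wild type. Both ddcc libraries lay below both wild-type libraries, from 9 reads against 45. The log2 fold change was -1.41 (SE 0.46), and with a limma adjusted p = 0.0882 it was not called, although after quantile normalisation, which calls 3.71% of genes higher and 2.78% lower, it passed (-1.58, adjusted p = 0.0414). LHCB3 lies on chromosome 5 at 22038165 to 22039568 and overlaps AT5G54280 on the opposite strand, which stood at 54.3 and 54.4 in ddcc, against 64.2 and 65.9 in wild type, so the origin of its reads is uncertain. LHCB6 (AT1G15820), the minor antenna protein CP24, had 10 reads in all and a log2 fold change of -0.05 (SE 0.65), and LHCB5 (AT4G10340), the minor antenna protein CP26, had 6 reads and was not tested.

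The genes of the major trimeric antenna, LHCB1 and LHCB2, were nearly unread. Of these 8 genes 5 had no read in any library (LHCB1.2, LHCB1.4, LHCB2.1, LHCB2.2 and LHCB2.3), and LHCB1.1, LHCB1.3 and LHCB1.5 had 1 read each. A count of 0 allows up to 3 reads, which is 0.000267% and 0.000257% of the reads of the ddcc libraries and 8.78e-05% and 0.000232% of those of the wild-type libraries, so no difference between genotypes was detectable at this depth. LHCB1.1, LHCB1.2 and LHCB1.3 lie in a cluster on chromosome 1 from 10472280 to 10479114 and are 95.6% to 96.4% identical in coding sequence, and LHCB2.1 and LHCB2.2 are 96.6% identical. No label states how reads that match several copies were counted, so the counts of these genes are uncertain.

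Among the antenna genes of photosystem I, LHCA4 (AT3G47470) was the most abundant and had the smallest p. It stood at 19.8 and 11.2 in ddcc, against 5.15 and 6.52 in wild type, from 26 reads against 15. Both ddcc libraries lay above both wild-type libraries. The log2 fold change was 1.16 (SE 0.47) with a limma adjusted p = 0.165, and it passed when libraries were scaled to equal totals of nuclear genes (1.497, adjusted p = 0.0491). That scaling calls 9.06% of genes higher and 1.3% lower and moved the median of all genes from 0.02 to 0.38. LHCA4 lies on chromosome 3 at 17493343 to 17495033, and AT3G47460 on the opposite strand, which overlaps it, had 4 reads in all. LHCA1 and LHCA3 had 10 and 7 reads and log2 fold changes of 0.08 (SE 0.65) and 0.13 (SE 0.66). LHCA2 (AT3G61470) had 3 reads in ddcc and 1 in wild type, was not tested, and is 98.0% identical in coding sequence to AT5G28450.

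Of the photosystem II subunits, PSBW and PSBR were among the most abundant members and lay close together in all libraries. PSBW (AT2G30570), a small subunit of the core complex, stood at 33.0 and 29.1 in ddcc, against 36.9 and 31.9 in wild type. Its log2 fold change was -0.14 (SE 0.31, limma adjusted p = 0.843), and the groups overlapped. With equal nuclear totals the value turned to 0.24, below the shift of all genes under that scaling. PSBR (AT1G79040), a subunit near the oxygen-evolving complex, stood at 35.3 and 31.6 in ddcc, against 27.3 and 32.8 in wild type, with a log2 fold change of 0.15 (SE 0.31). The counting intervals of the depth-corrected read ratios were 0.616 to 1.25 for PSBW and 0.798 to 1.64 for PSBR. PSBW overlaps no other gene, while PSBR overlaps AT1G79050 on the opposite strand.

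PSBP1 (AT1G06680), an extrinsic protein of the oxygen-evolving complex, stood at 6.88 and 1.41 in ddcc, against 15.5 and 13.3 in wild type. Both ddcc libraries lay below both wild-type libraries, from 7 reads against 39. Its log2 fold change of -1.67 had an SE of 0.55 and a limma adjusted p = 0.0898, so it was not called, and it passed after quantile normalisation (-1.88, adjusted p = 0.0378). PSBP1 lies on chromosome 1 at 2047634 to 2049439 and overlaps AT1G06670 on the same strand and AT1G06690 on the other. AT1G06670 stood at 118 and 128 in ddcc, against 79.6 and 65.0 in wild type, so the origin of the PSBP1 reads is uncertain. The other extrinsic proteins were close to unread, with 2 reads of PSBO1 in ddcc, 2 of PSBO2 in wild type and none of PSBQ2, and PSBS, which senses lumen acidity in photoprotection, had none.

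Photosystem I subunits were low, with 2 of 10 tested and none called. PSAD1 and PSAD2 encode copies of the same subunit, on the side where ferredoxin docks. PSAD2 (AT1G03130) stood at 8.28 and 8.475 in ddcc, against 4.26 and 10.13 in wild type, and the groups overlapped (log2 fold change 0.27, SE 0.51, limma adjusted p = 0.815). It overlaps AT1G03140 on the same strand, which was more abundant, at 171 ddcc reads and 399 wild-type reads. PSAD1 (AT4G02770) stood at 1.27 and 3.54 in ddcc, against 6.09 and 9.05 in wild type, with both ddcc libraries lower (log2 fold change -1.24, SE 0.57, limma adjusted p = 0.226), from 4 reads against 19. Per kilobase of transcript, PSAD2 had a mean level of 8.76 in ddcc and 7.53 in wild type, and PSAD1 one of 2.12 and 6.67. In wild type PSAD1 had more reads than PSAD2, 19 against 17. The difference between the copies was not tested. PSAH2 and PSAK had no read, and PSAE1, PSAF, PSAG, PSAL, PSAN and PSAO had 1 to 4 reads each over the 4 libraries.

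RBCS1A was the 1 member called. It stood at 69.7 and 71.3 in ddcc, against 4.74 and 11.4 in wild type, from 59 and 59 reads against 10 and 9. Both ddcc libraries lay far above both wild-type libraries, and the ddcc pair differed less than the wild-type pair. The log2 fold change was 2.995 (SE 0.39, limma adjusted p = 5.46e-04), and the depth-corrected read ratio was 9.80 with a counting interval of 6.003 to 16.8. Leaving out wild-type replicate 1 gave 2.47 (adjusted p = 0.0191), and leaving out wild-type replicate 2, whose labels conflict, gave 3.52 (0.0102). The call was lost without ddcc replicate 1 (3.01, adjusted p = 0.363), without ddcc replicate 2 (2.98, 0.351) and in limma without a variance trend (2.995, 0.0719). With either ddcc library left out 1 gene of the whole genome was called, and without the trend 33.

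RBCS1A overlaps no annotated gene and has no copy of at least 95% coding identity. Of the B genes, which encode the same subunit, RBCS1B had no read, and RBCS2B and RBCS3B had 1 read each, both in ddcc replicate 1. Being near-identical copies of each other, they carry the same uncertainty in counting as LHCB1 and LHCB2. Per kilobase of transcript, RBCS1A had the highest level of the 41 in ddcc, with a normalised read count of 55.6 per kb ahead of PSBR (42.7), PSBW (32.4) and LHCB4.1 (26.9). In wild type RBCS1A stood at 6.36 per kb, below PSBR (38.3), PSBW (35.9), LHCB4.1 (25.9), LHCB3 (13.3), PSBP1 (10.7), PSAD2 (7.53) and PSAD1 (6.67).

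The remaining Calvin cycle genes had positive log2 fold changes that did not pass the test. GAPA1 (AT3G26650), a subunit of the chloroplast glyceraldehyde-3-phosphate dehydrogenase, was the most abundant and had the smallest p of them. It stood at 14.2 and 14.5 in ddcc, against 2.87 and 13.7 in wild type (log2 fold change 0.95, SE 0.55, limma adjusted p = 0.347). Both ddcc libraries were above both wild-type libraries, but wild-type replicate 2 lay close to them. RCA (AT2G39730), the Rubisco activase that frees the enzyme from bound inhibitors, stood at 9.60 and 14.4 in ddcc, against 7.47 and 6.68 in wild type (0.63, SE 0.46, limma adjusted p = 0.472). GAPB (AT1G42970), the partner subunit of GAPA1, had a log2 fold change of 1.12 (SE 0.68) from 9 reads against 7, with overlapping groups. PRK (AT1G32060), phosphoribulokinase, had 1 read in ddcc and 5 in wild type and was not tested. RCA overlaps AT2G39725 on the opposite strand, which stood at 11.8 and 12.1 in ddcc, against 7.59 and 5.45 in wild type. GAPA1 overlaps AT3G26640 on the same strand, which stood at 8.24 and 7.31 in ddcc, against 6.94 and 12.8 in wild type. The origin of the reads of RCA and GAPA1 is therefore uncertain.

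**Figure D2:**
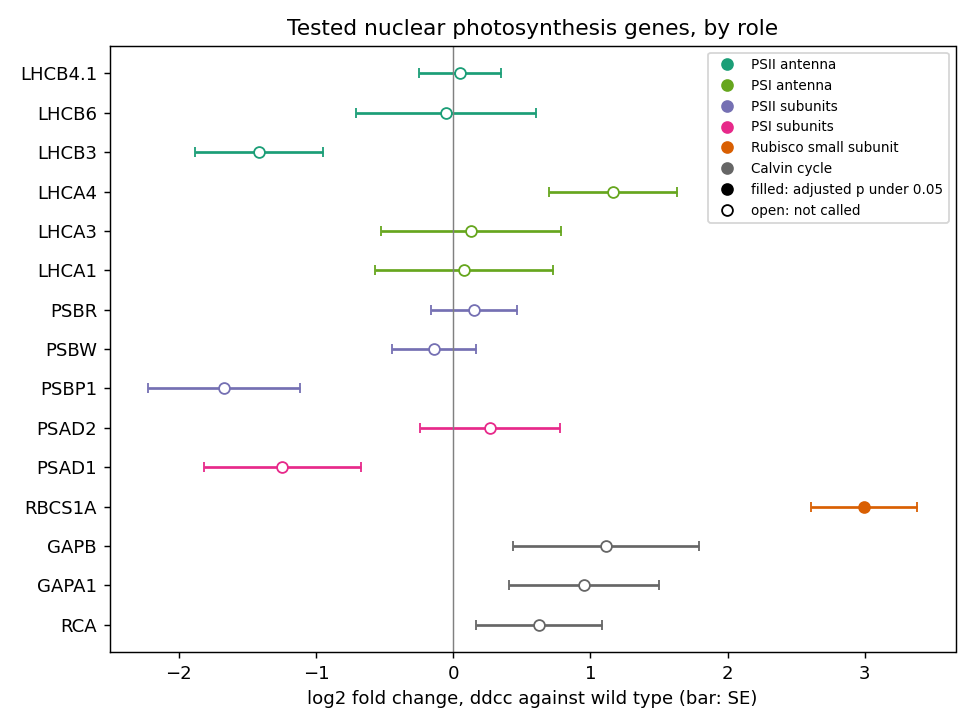
Log2 fold changes (ddcc against wild type, on the log2(value + 1.56) scale) of the 15 tested genes by role, with bars of 1 SE. RBCS1A, at 2.995, is the 1 filled point, meaning an adjusted p under 0.05, and 7 genes lie within 0.3 of 0.

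The plot of the tested genes shows that the 4 most abundant genes in ddcc differed in their fold changes. RBCS1A lies far to the right, whereas LHCB4.1, PSBR and PSBW lie close to 0 with the shortest bars. The genes at the left edge, PSBP1, LHCB3 and PSAD1, belong to 3 different role groups.

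How the summed level of the list differed between genotypes depended on RBCS1A and on the scaling. On the deposited scale the 41 genes summed to 265 and 247 in ddcc and to 183 and 203 in wild type, 1.33 times as much in ddcc. Without RBCS1A the other 40 genes summed to 196 and 176 in ddcc and to 178 and 191 in wild type, a ratio of 1.01 with overlapping groups. This near-equality did not hold on every scale. With TMM factors the ratio of all 41 genes was 1.32, near the 1.33 of the deposited scale. With equal nuclear totals the ratio of the 40 genes was 1.32, and as a share of reads they took 0.0148% and 0.0124% in ddcc, above the 0.00989% and 0.0113% of wild type. RBCS1A made up 27.5% of the list's reads in ddcc and 3.78% in wild type.

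**Figure D3:**
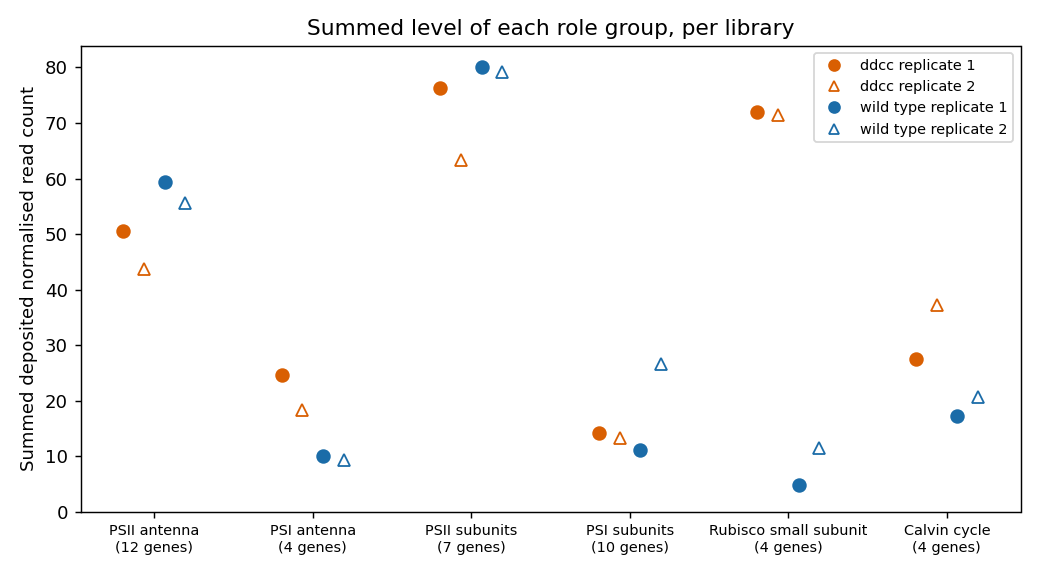
Summed deposited normalised read counts of each role group, with 1 point per library and the number of genes under each group. The small subunit group stands at 72.0 and 71.4 in ddcc against 4.74 and 11.4 in wild type, while photosystem II subunits lie between 63.3 and 80.1 in all libraries.

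The plot of summed levels shows the photosystem II antenna lower in both ddcc libraries (50.6 and 43.7) than in both wild-type libraries (59.4 and 55.5) on the deposited scale. Its ratio of ddcc to wild type turned from 0.821 to 1.08 with equal nuclear totals, and its share of reads overlapped between genotypes. The sum of the photosystem II subunits turned likewise, from 0.877 to 1.16. The photosystem I antenna was higher in both ddcc libraries, at 24.7 and 18.4 against 10.01 and 9.36. Its ratio of 2.22 became 2.94 with equal nuclear totals. Most of the mean sum came from LHCA4, which was not called, at 15.5 of 21.5 in ddcc and 5.84 of 9.68 in wild type. Calvin cycle genes were at 27.5 and 37.2 against 17.3 and 20.6, and photosystem I subunits overlapped at 14.2 and 13.3 against 11.2 and 26.6. With 2 libraries against 2 an exact two-sided permutation test cannot go below p = 0.333, so these sums are given as values.

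Lists of markers of other cell types and stages did not all differ between genotypes in the same direction. Of the leaf and guard cell markers 4 of 7 were tested, and in all 4 both ddcc libraries lay above both wild-type libraries. Among all tested genes that share was 25.7%, but SHM1 and FAMA had wild-type means of 0 and 1.16, below the filter. Both were tested through their ddcc values, FAMA from 5 reads against 3. CA1, MYB60 and GLDH1 were not tested, with 2, 2 and 1 reads in all. The list summed to 37.8 and 36.4 in ddcc and to 17.4 and 11.0 in wild type. SHM1, a photorespiratory gene of leaf mitochondria, stood at 5.995 and 8.38 in ddcc, from 12 reads, and had no read in wild type. It passed the filter through its ddcc values alone. It was called higher (limma adjusted p = 0.0304), and not with any 1 library left out (0.0755 to 0.414; 0.0761 without wild-type replicate 2). Against a floor of 3 reads over the wild-type pair it was at least 6.31-fold higher at equal effective depth. The most abundant of this list, GOX1, stood at 13.1 and 16.8 in ddcc, against 10.5 and 5.61 in wild type, and no marker of the list was at 0 in all libraries.

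Of the late maturation genes 2 of 4 were called lower, against 3.45% of all tested genes. The list summed to 27191 and 30822 in ddcc and to 76424 and 88570 in wild type. EM6 was called at 6989 and 6804 in ddcc, against 15772 and 21125 in wild type. M17, with the highest mean, was called at 8725 and 11418, against 36902 and 49945. Both calls held without wild-type replicate 2 (limma adjusted p = 0.0351 and 0.0196), and both were lost without a ddcc library. The 4 embryo storage markers were not called. In the seed coat list no gene was called, and TT10 had the highest mean, at 82.4 and 65.6 in ddcc, against 61.4 and 6.78 in wild type. TT12 went the other way, at 26.0 and 26.6 in ddcc, against 37.0 and 29.3 in wild type (log2 fold change -0.31). MUM4 overlapped between genotypes (0.30), and BAN had no read. PHE1 of the endosperm had no read either, and EPR1, the most abundant endosperm marker, stood at 23673 and 32212 in ddcc, against 13960 and 15731 in wild type without passing (limma adjusted p = 0.15). FIS2 of the same list stood at 4.65 and 2.52 against 10.4 and 13.05 and was not called (log2 fold change -1.39, adjusted p = 0.125), and AGL62 had a log2 fold change of -0.23. In the silique wall list FUL, IND and SHP2 had no read, SHP1 had the highest mean (12.8 and 6.29 against 16.8 and 5.88), and the list summed to 14.05 and 9.83 in ddcc and to 16.8 and 8.29 in wild type. The part of these cell types and stages in the RBCS1A result was not tested. In whole seeds fewer cells of a type and less RNA per cell cannot be told apart.

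Around the 41 genes, 6 further nuclear lists held 81 genes of photosynthesis, 59 of them tested. Of these 2 were called higher and none lower in limma, against 3.03% and 3.45% of all genes. At an unadjusted limma p under 0.05 there were 13 higher and 1 lower. Among all tested genes 21.2% passed that threshold in either direction. That share was not split by direction, so it gives no background for the 13 against 1. Of the 13, ATPC1, FBA2, PORC and GLK1 had wild-type means of 0, 0.586, 0.28 and 0.28, below the filter. They were tested only through their ddcc values, which favours higher genes. The median log2 fold change of the 59 was 0.27, against 0.02 for all tested genes. Voom on the inferred reads called the same genes, CHLI1 and GLK1, and none lower.

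GLK1 (AT2G20570) encodes a transcription factor known to switch on antenna and chlorophyll synthesis genes in leaves. It stood at 10.7 and 13.2 in ddcc, against 0.536 and 0.0241 in wild type, from 20 reads against 1. GLK1 thus passed the filter through its ddcc values. The log2 fold change was 2.88 (SE 0.58, limma adjusted p = 0.00933), and the depth-corrected read ratio was 31.5 with a counting interval of 5.05 to 1307. It was not called without ddcc replicate 1 (3.02, adjusted p = 0.363), ddcc replicate 2 (2.75, 0.400) or wild-type replicate 2 (2.68, 0.0522), at fold changes near that of all 4 libraries. Its paralogue GLK2 was more abundant, at 88.3 and 72.8 in ddcc, against 47.5 and 68.0 in wild type, and was not called (0.48, adjusted p = 0.336). GUN1, of plastid-to-nucleus signalling, had the highest mean of the regulators and stood at 247 and 219 against 196 and 191 (0.26, adjusted p = 0.538).

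CHLI1 (AT4G18480) encodes a subunit of the magnesium chelatase, which commits protoporphyrin to chlorophyll. It stood at 16.4 and 13.4 in ddcc, against 3.20 and 2.71 in wild type, from 25 reads against 8, and rose by 1.87 on the log2 scale (SE 0.48, limma adjusted p = 0.0336). Its call was lost with each of the 4 libraries left out in turn (adjusted p between 0.0946 and 0.400, log2 fold change between 1.73 and 1.998), with no filter (0.0908) and without the trend (0.0832). Without wild-type replicate 2 alone the log2 fold change of CHLI1 was 1.79. CHLI1 overlaps AT4G18465 on the opposite strand. CAO (AT1G44446), the oxygenase that makes chlorophyll b, was the most abundant gene of this pathway and stood at 71.8 and 59.5 against 72.8 and 57.1 (0.02, adjusted p = 0.979). The chelatase subunit gene CHLH and the genes PORB and GUN4 had no read.

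In the other 4 lists no gene was called. LHCA5, a scarce photosystem I antenna protein, stood at 28.2 and 22.0 in ddcc, against 13.7 and 8.26 in wild type (1.11, limma adjusted p = 0.12), and PSB27, an assembly factor of photosystem II, was the most abundant of its list at 54.0 and 35.5 against 39.0 and 57.4. Of the electron carriers and ATP synthase subunits, the ferredoxin gene FD1 stood at 9.46 and 9.68 against 2.74 and 1.44 (1.63, adjusted p = 0.0896), and ATPG was the most abundant at 54.5 and 68.7 against 37.1 and 38.2. CP12-1, a small protein that holds GAPDH and PRK in an inactive complex, was the most abundant of all genes in these lists. It stood at 484 and 439 in ddcc, against 733 and 744 in wild type, with both ddcc libraries lower (-0.68, SE 0.21, limma adjusted p = 0.0726). OHP2, a one-helix relative of the antenna proteins, stood at 17.7 and 15.8 against 23.9 and 23.8 (-0.47, adjusted p = 0.484).

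**Figure D4:**
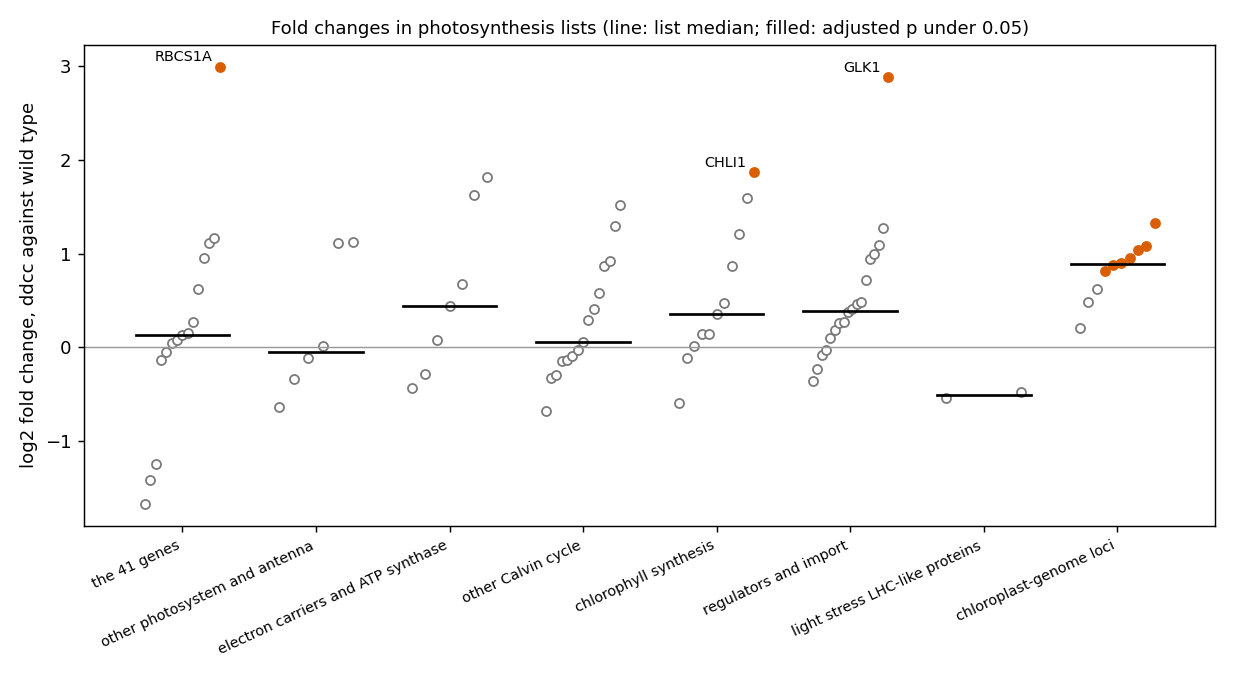
Log2 fold changes of the tested genes of each photosynthesis list, with 1 point per gene, a line at each list's median and filled points for an adjusted p under 0.05. RBCS1A, GLK1 and CHLI1 are the nuclear genes called, and 7 of the 10 chloroplast-genome loci are called higher.

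The plot of the lists places RBCS1A and GLK1 near 3 and every other nuclear gene at or below 1.87. The chloroplast-genome loci form a narrow band above 0. Of the 10 loci of the chloroplast genome on the list 7 were called higher and none lower, against 3.03% and 3.45% of all tested genes. The median log2 fold change of the 10 was 0.89. ATCG00490 rose from 188 and 232 in wild type to 455 and 609 in ddcc (1.33, SE 0.23, limma adjusted p = 0.00433), and ATCG00020 was the most abundant at 2738 and 3127 against 2438 and 2629 (0.21, adjusted p = 0.679). Chloroplast-genome loci as a whole took 3.46% and 3.63% of the ddcc reads but 1.76% and 1.55% of the wild-type reads. None of the 10 was called without a ddcc library or in limma without the trend, and 3 were without wild-type replicate 2.

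Upstream sequences were scanned for short motifs known from light-responsive plant promoters, in the 500 bases before each start codon and on both strands of TAIR10.1. The G-box core CACGTG was present for 20 of the 41 members (48.8%), against 9.16% of 26709 genes scanned. The longer form ACGTGGC, which overlaps it, was present for 16 (39.0% against 4.93%). GATAAG was present for 30 (73.2% against 23.6%), CCAATC for 23 (56.1% against 21.2%) and GGTTAA for 10 (24.4% against 24.5%). The window can include the annotated 5′ UTR, and a match is a description of the sequence alone.

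RBCS1A, RBCS2B and RBCS3B held the G-box, and RBCS1B did not, while RBCS1A alone of them had more than 1 read. LHCB4.1 and PSBP1, which were not called, held it too. The windows of 30 bases around it are shown for these genes, because they set the called member beside members with other counts, with CACGTG in capitals and read in the direction of the gene.
RBCS1A: ggaattatcttcCACGTGgcattattccag
RBCS2B: ggagttttctgcCACGTGatcttatcctag
RBCS3B: ggagttttctgcCACGTGgccttatcctag
LHCB4.1: aagaccgcagtaCACGTGgcttcttctaac
PSBP1: aagcgtatctgcCACGTGgcacaatacaac
The windows lie at chr1:25049491-25049520 (RBCS1A, minus strand), chr5:15382177-15382206 (RBCS2B, minus), chr5:15378506-15378535 (RBCS3B, minus), chr5:208780-208809 (LHCB4.1, plus) and chr1:2047729-2047758 (PSBP1, plus). Those of RBCS1A, RBCS3B and PSBP1 fall in the annotated 5′ UTR, and the others lie upstream of the gene.

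**Figure D5:**
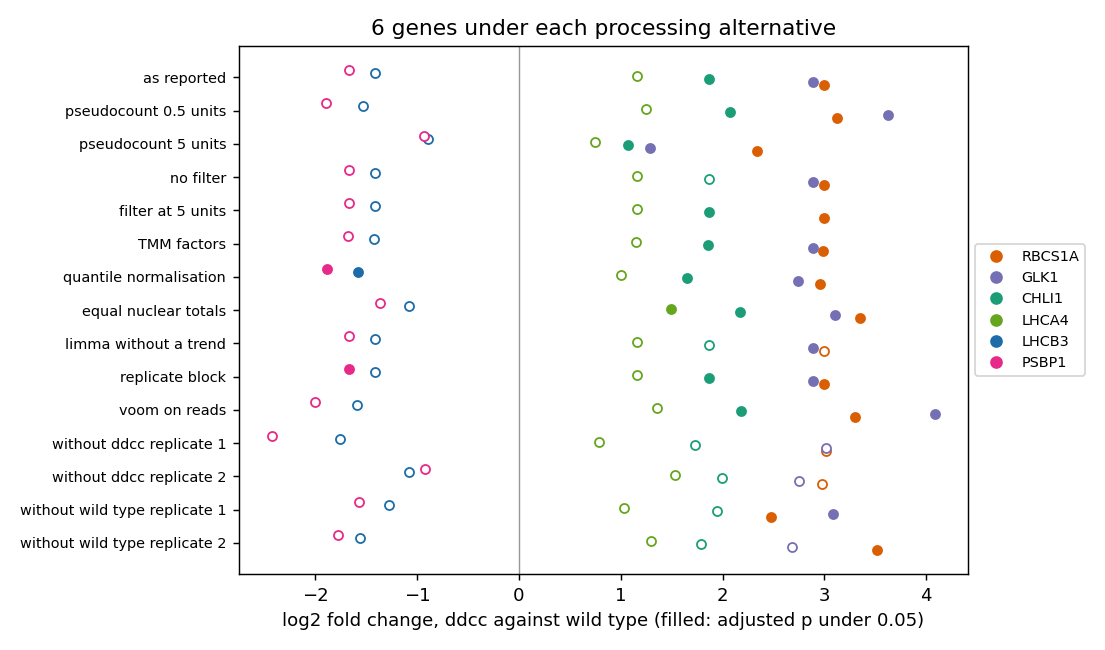
Log2 fold changes of 6 genes under each processing alternative, with filled points for an adjusted p under 0.05. RBCS1A lies between 2.33 and 3.52 in every alternative, and LHCB3, PSBP1 and LHCA4 are filled in 1 or 2 of them.

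The plot of the alternatives shows that each of the 6 genes kept its sign throughout, GLK1 being absent from the filter at 5 units. RBCS1A lost its call without either ddcc library at fold changes of 3.01 and 2.98, close to that reported. PSBP1 ranged from -2.42 to -0.92 and LHCB3 from -1.75 to -0.89.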

How the data were processed

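The 4 libraries were grouped by their titles. The submitters' processing notes name the TAIR10 build with Bowtie (0.12.7) and edgeR (3.10.5), and no source used here gives settings for mapping, counting or strand. The authors deposited a signal, normalised read counts per gene that were neither whole nor divided by length. Within each genotype the authors' values followed an equalisation of library sizes as in edgeR (dispersion 0.0327), and inverting it gave whole reads for 100% of value pairs within 0.01. These reads served for depth, floors of 3 reads, 95% exact binomial counting intervals and voom. Count tests were not run, because the values do not lie on even steps. Intervals and floors cover counting error only.

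The main test was limma 3.58.1 in R 4.3.3 with a variance trend, on log2(value + 1 unit), where a unit is 1.56, for genes whose mean reached 1 unit. Alternatives were pseudocounts of 0.5 and 5 units, no filter or 5 units, TMM factors, quantile normalisation, equal nuclear totals, no trend, a replicate block, each library left out and, added after the data were seen, voom.

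The members, the other lists and the markers were chosen with earlier results of these data known. The text gives every library's value for called members, for the most abundant member and the one with the smallest p in each role group and photosynthesis list, for the most abundant marker of most marker lists, and for other members singled out after their values were seen. Names, positions and sequences came from TAIR10.1, which keeps the nuclear sequences of TAIR10, and copies of at least 95% coding identity over at least 100 bases from BLAST+ 2.17.0. Of the members 16 overlap another gene and 9 have such a copy, among the tested 8 and 0. Both wild-type file headers name replicate 2, but their values differ. The labels call the replicates biological without naming plants, so p-values measure the spread between these libraries.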

Additional observations from a re-analysis of the deposited data

How the results depend on the processing

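Depth limits these results: 53.7% of members had 3 reads or fewer, and each genotype had 2 libraries. Of all genes 1023 were called as reported, 336 without a filter, 33 without a trend and 1646 with equal nuclear totals (87.4% of them higher, against 46.7% as reported and 57.2% after quantile normalisation), and 1 to 467 with a library left out. Members called numbered 1 as reported, 3 after quantile normalisation (LHCB3 and PSBP1 lower), 2 with equal nuclear totals (LHCA4), 0 without a trend and 0 to 1 with a library left out. In the other nuclear lists the count of 2 became 1 without a filter, with a filter at 5 units or without a trend, 10 with equal nuclear totals, and 0 to 1 with a library left out. Chloroplast-genome loci called fell from 7 to 2 without a filter and 0 without a trend, and to 0 to 5 with a library left out. With quantile normalisation, and likewise with equal nuclear totals, 9 chloroplast-genome loci were called, and with the replicate block 5. The summed level of the members in ddcc over wild type moved from 1.33 to 1.75 with equal nuclear totals. Values near 0 changed sign: PSBW to 0.24 and PSB27 to 0.27 with equal nuclear totals. With a library left out, LHCB4.1 ranged from -0.082 to 0.18, PSAD2 from -0.23 to 0.77, PSB27 from -0.40 to 0.18 and CAO from -0.15 to 0.19. With the replicate block 1381 of all 15780 tested genes were called, against 1023 as reported. Under it 2 members were called, PSBP1 joining at a limma adjusted p of 0.0309, and 3 genes of the other lists. Same-numbered libraries did not deviate together (correlation -0.0455 across genes). Since counting noise enters every difference, this value cannot decide whether the numbers pair the samples. A lone library left in a genotype is assumed to vary like the other pair, and the cause of the other changes was not tested.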
